A study of Mus musculus with 3 samples.

Results

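The mitochondrial chromosome encodes 7 subunits of respiratory complex I, and their genes mt-Nd1, mt-Nd2, mt-Nd3, mt-Nd4l, mt-Nd4, mt-Nd5 and mt-Nd6 were examined in mouse 2-cell embryos. They were taken by name from the 37 annotated genes of that chromosome, of which 13 encode proteins. RNA came from 3 litters of embryos collected at embryonic day 1.5, which form 1 group with no contrast between conditions. The mothers were LSD1 FL/FL and ZP3::Cre negative, that is, they carried a floxed histone demethylase gene without the oocyte Cre transgene, on a mixed strain background. The fathers were wild type, called CB6 in one label and C57/Bl6J in another, and the origin of the mothers' mitochondria is not given. Each library pooled the embryos of a litter. Its RNA had been copied with SPIA, an amplification along the length of the RNA, and 72-base alignments were recovered from the deposited coverage.

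Complex I, the NADH dehydrogenase, passes electrons from NADH to ubiquinone and pumps protons across the inner mitochondrial membrane. Its mitochondrially encoded subunits build the core of the membrane arm, and the other subunits come from nuclear genes. Mitochondria transcribe nearly the whole of each strand as long precursors. These are cut mainly at the tRNA genes that lie between the messages, so that most mature messages begin and end beside a tRNA. The egg supplies the mitochondria of the early embryo.

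mt-Nd4l and mt-Nd4 share bases and remain on a single message with 2 reading frames, and mt-Nd5 and mt-Nd6 overlap from opposite strands. The ends of these pairs are shown because the alignments that cross them are counted below. Sequences are those of the GENCODE M21 transcripts, made for GRCm38, written 5′ to 3′ on the gene's own strand. Capitals mark the bases that both genes of a pair share, 7 in the first pair and 14 in the second, and the last 2 sequences are reverse complements over them.
mt-Nd4l, bases 10144 to 10173, plus strand: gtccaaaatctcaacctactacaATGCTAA
mt-Nd4, bases 10167 to 10196, plus strand: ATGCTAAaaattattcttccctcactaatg
mt-Nd5, bases 13536 to 13565, plus strand: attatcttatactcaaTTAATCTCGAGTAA
mt-Nd6, bases 13552 to 13581, minus strand: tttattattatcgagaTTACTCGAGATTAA
The 7 genes begin with 5 different codons: GTG in mt-Nd1, ATA in mt-Nd2, ATT in mt-Nd3, ATC in mt-Nd5 and ATG in the other members. mt-Nd4 is the member whose length is no multiple of 3. Its last 24 bases, up to base 11544, end in a lone T, shown in capitals, and such a T becomes a stop codon when the poly(A) tail is added.
mt-Nd4, last bases: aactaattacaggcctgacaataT
mt-Nd6, the member on the minus strand, is 43.7% T and 5.97% C on its own strand. The other 6 are at most 32.8% T and at least 22.1% C.

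The totals were 34014013, 32431630 and 40474940 nuclear alignments in litters 1 to 3, and the mitochondrial chromosome of 16299 bases was covered 65540, 57330 and 63810 times on average. A gene's level below is its mean coverage relative to that average, leaving out bases shared with another gene. Levels compare genes per base within a library, and fewer mitochondria and less RNA per mitochondrion cannot be told apart. Reads carry no strand, so a gene and RNA of the opposite strand cannot be told apart either.

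The 3 subunits that resemble ion antiporters differed widely. mt-Nd4 (bases 10167 to 11544) stood at 1.19, 1.22 and 0.784 times the chromosome average in litters 1 to 3. mt-Nd2 (bases 3914 to 4951) stood at 0.612, 0.753 and 0.473, and mt-Nd5 (bases 11742 to 13565), the longest member, at 0.308, 0.325 and 0.218. mt-Nd4 was above mt-Nd2, and mt-Nd2 above mt-Nd5, in 3 of 3 litters.

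The remaining members lie where the membrane arm meets the rest of the complex. mt-Nd1 (bases 2751 to 3707), which helps to form the ubiquinone site, stood at 0.867, 0.698 and 0.629 in litters 1 to 3. mt-Nd4l (bases 9877 to 10173) stood at 0.698, 0.770 and 0.481. mt-Nd6 (bases 13552 to 14070) stood far lower, at 0.0582, 0.0623 and 0.0385. mt-Nd3 (bases 9459 to 9806), which contributes a loop near the ubiquinone site, was lowest of the 7 in every litter at 0.0258, 0.0172 and 0.0181. Even so, 7138, 4158 and 4939 alignments lay wholly inside mt-Nd3. These are amplified reads and not independent molecules, so the sampling error of its level is not known.

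**Figure D1:**
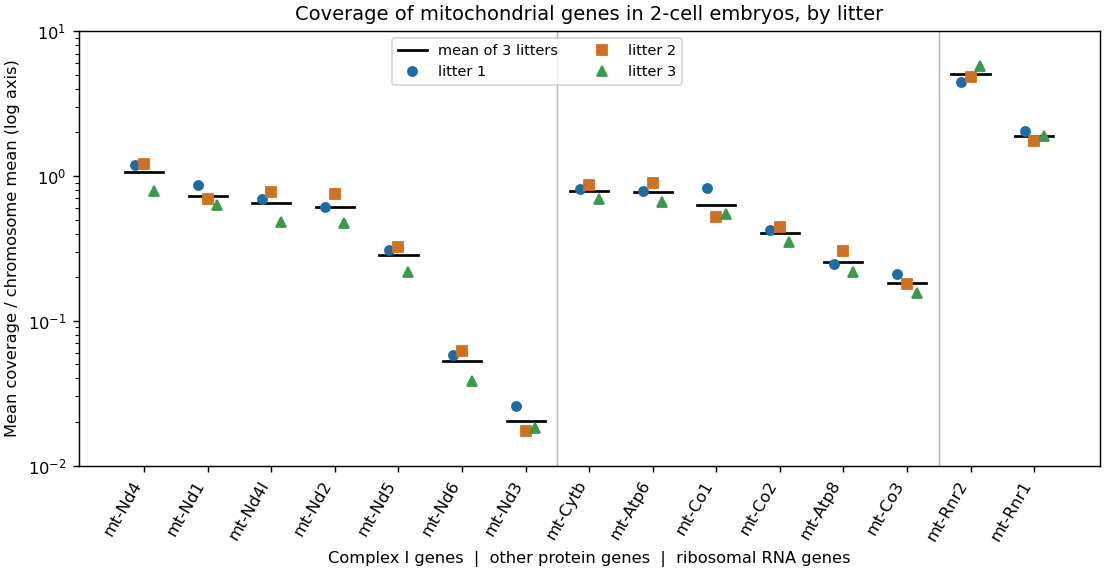
Mean coverage of each gene over bases of no other gene, divided by the mean of the mitochondrial chromosome (log axis), with points for the 3 litters and a line for their mean. The complex I genes run from mt-Nd4 at 1.06 to mt-Nd3 at 0.0204, a wider range than that of the 6 other protein genes.

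The order of levels was mt-Nd4, mt-Nd1, mt-Nd4l, mt-Nd2, mt-Nd5, mt-Nd6, mt-Nd3. Its steps were tested by flipping the signs of the 3 log2 ratios in every way (an exact permutation test, two-sided), in which 3 litters cannot give a p below 0.25. mt-Nd1 exceeded mt-Nd4l in 2 of 3 litters (ratios of 1.24, 0.908 and 1.31, p = 0.5, adjusted p = 0.5 over 6 steps), so their order did not hold. mt-Nd4l exceeded mt-Nd2 in 3 of 3 litters, by ratios of 1.14, 1.02 and 1.02. The other 4 steps also held in 3 of 3 litters, and these 5 steps each had an exact permutation p of 0.25 (adjusted p = 0.3). The steps with the largest ratios were mt-Nd5 over mt-Nd6 at 5.38 ± 0.237 and mt-Nd6 over mt-Nd3 at 2.67 ± 0.826 (SD, n = 3). With the median over bases in place of the mean, mt-Nd1 at 0.805 stood above mt-Nd4 at 0.738.

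Litter 3 had the lowest level of 6 of the 7 genes, mt-Nd3 being the exception. Relative to the mean of the 13 protein genes in place of the chromosome, which the ribosomal RNA genes dominate, litter 3 was lowest for 4 of 7. On that scale mt-Nd4 stood at 1.89, 2.01 and 1.71 in litters 1 to 3, and mt-Nd5 at 0.490, 0.536 and 0.474. Litter 2 gave the highest level of 5 genes (mt-Nd2, mt-Nd4l, mt-Nd4, mt-Nd5 and mt-Nd6) on both scales, and the lowest of mt-Nd3. Within complex I, mt-Nd4 held 41.1% ± 1.46 of the aligned bases on 21.7% of the length, and mt-Nd3 held 0.205% ± 0.0463 on 5.51% of the length (SD, n = 3).

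As a group, complex I genes were not set apart from the 6 other mitochondrial protein genes by their typical level. The median complex I gene stood at 0.612, 0.698 and 0.473 in litters 1 to 3, against 0.608, 0.482 and 0.448 for the median of the 6 others. The ratio was 1.17 ± 0.242 (SD, n = 3), above 1 in 3 of 3 litters, with p = 0.25 in the exact sign-flip permutation test. With means of genes in place of medians it was 0.956 ± 0.0830, above 1 in 1 of 3 litters. The range within the group was wider: the highest member exceeded the lowest by 53.3 ± 15.1 fold in complex I and by 4.44 ± 0.521 fold among the others. This came from mt-Nd3 and mt-Nd6, with mean levels of 0.0204 and 0.0530. The remaining members ran from 1.06 in mt-Nd4 to 0.283 in mt-Nd5, and the 6 others from 0.787 in mt-Cytb to 0.182 in mt-Co3.

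Coverage within a gene was far from even, and most of the genes had a shape that recurred in all 3 litters. Each gene was cut into 3 equal segments along its own strand. In mt-Nd4 the 5′ segment stood at 0.530, 0.560 and 0.322 times the chromosome average in litters 1 to 3, and the 3′ segment at 1.64, 1.67 and 1.13. Coverage first fell along the gene, then climbed to a peak 1031 to 1075 bases from its start, at 3.39, 3.41 and 2.34, and dropped to 0.0126, 0.00945 and 0.0102 at the last base. Over 14 bins of about 100 bases, the highest exceeded the lowest by 84.3, 93.2 and 87.2 fold.

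**Figure D2:**
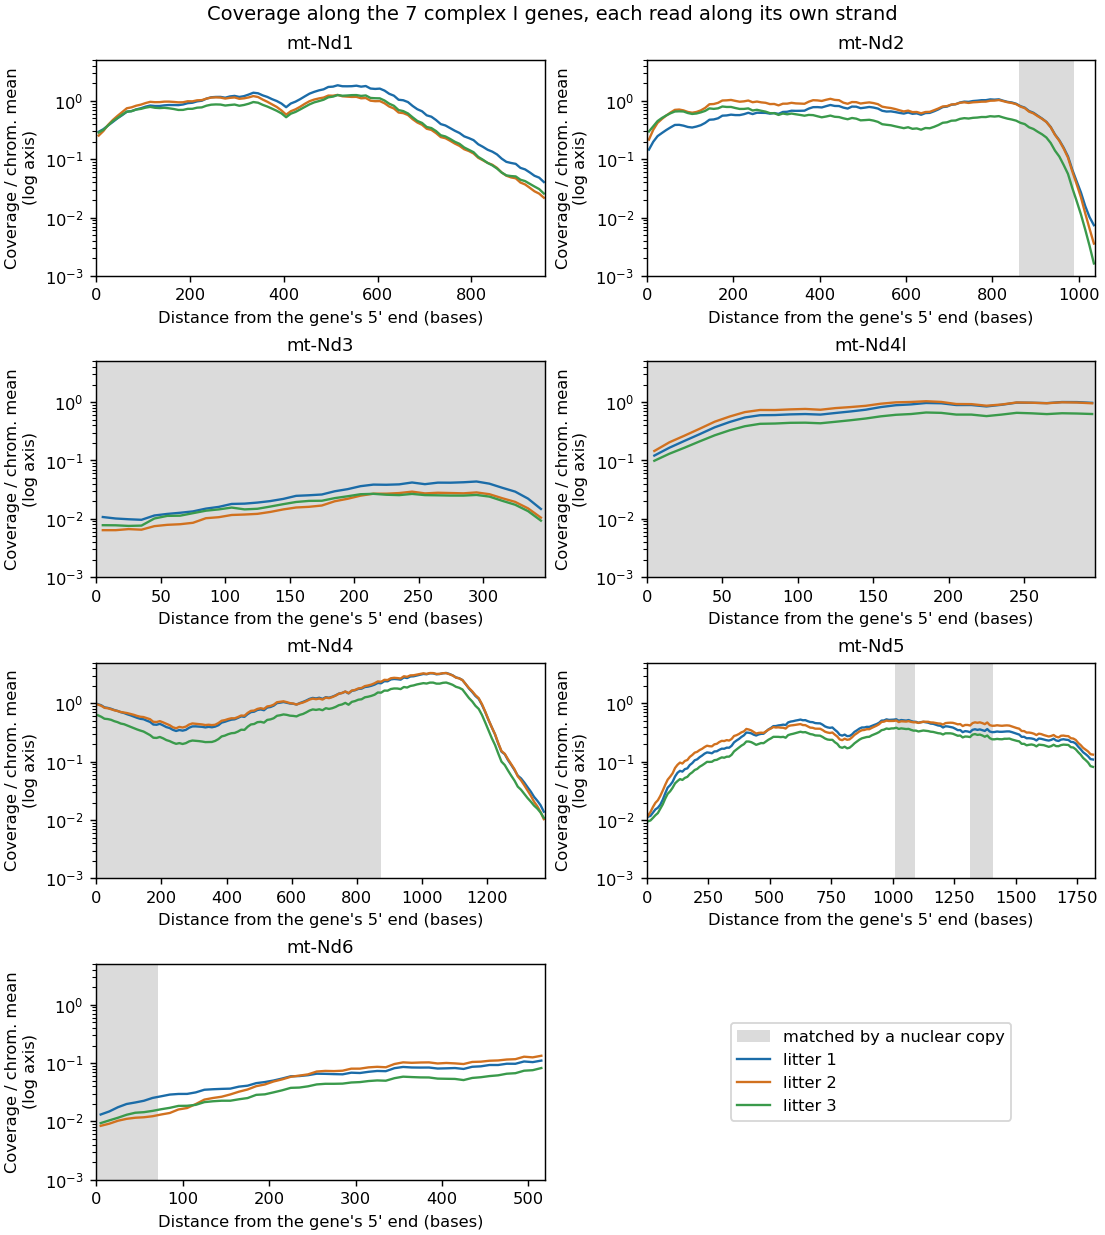
Coverage along each of the 7 genes, divided by the mean of the mitochondrial chromosome (log axis), against distance from the gene's 5′ end in bases, with a line for each of the 3 litters. Grey marks stretches whose start counts recur on a nuclear chromosome; mt-Nd4 peaks 1031 to 1075 bases from its start, and mt-Nd1 and mt-Nd2 fall steeply at their 3′ ends.

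mt-Nd1 had the opposite slope. Its 5′ segment stood at 0.845, 0.889 and 0.706, its middle at 1.41, 0.999 and 0.958, and its 3′ segment at 0.343, 0.204 and 0.219 in litters 1 to 3. The 3′ to 5′ ratio of segments was therefore 0.315 ± 0.0881 (SD, n = 3), the lowest of the 7 genes. It lay above 1 in 3 of 3 litters for mt-Nd4 at 3.19 ± 0.276, mt-Nd3 at 2.58 ± 0.496, mt-Nd4l at 2.19 ± 0.217, mt-Nd5 at 1.52 ± 0.123 and mt-Nd6 at 4.35 ± 1.64. For these 6 genes the exact permutation p was 0.25 each (adjusted p = 0.292 over 7). The size depends on the segments: with the last over the first of 5 equal parts the ratio was 1.24 in mt-Nd4, where coverage drops after the peak, 0.143 in mt-Nd1 and 2.40 in mt-Nd5. Without the outer 72 bases at each end it was 1.41 in mt-Nd4l and 2.89 in mt-Nd6. In mt-Nd6 the rise towards its own 3′ end is a rise towards mt-Nd5, whose opposite strand it overlaps. A ratio below 1 in every litter was not particular to mt-Nd1. Among the 6 other protein genes it was 0.315 in mt-Co3, 0.317 in mt-Atp6, 0.484 in mt-Co2 and 0.532 in mt-Cytb, below 1 in every litter. In mt-Co1 at 1.64 and mt-Atp8 at 13.4 it was above 1 in every litter.

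mt-Nd2 was the gene whose slope differed between litters. In litters 1 to 3 its 5′ segment stood at 0.483, 0.792 and 0.639, and its 3′ segment at 0.634, 0.618 and 0.329. The ratio of 3′ to 5′ was 1.31, 0.779 and 0.516, above 1 in 1 of 3 litters (exact permutation p = 0.75, adjusted p = 0.75), and its mean of 0.870 turned to 1.05 without litter 3. The highest base moved with it, lying 793, 427 and 177 bases from the start in litters 1 to 3. Correlations of log2 coverage over 20 bins of the gene, given as a description, were 0.962 and 0.969 between litter 2 and each other litter, and 0.872 between litters 1 and 3. In mt-Nd4 the same correlations over 27 bins were 0.996 to 0.999.

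**Figure D3:**
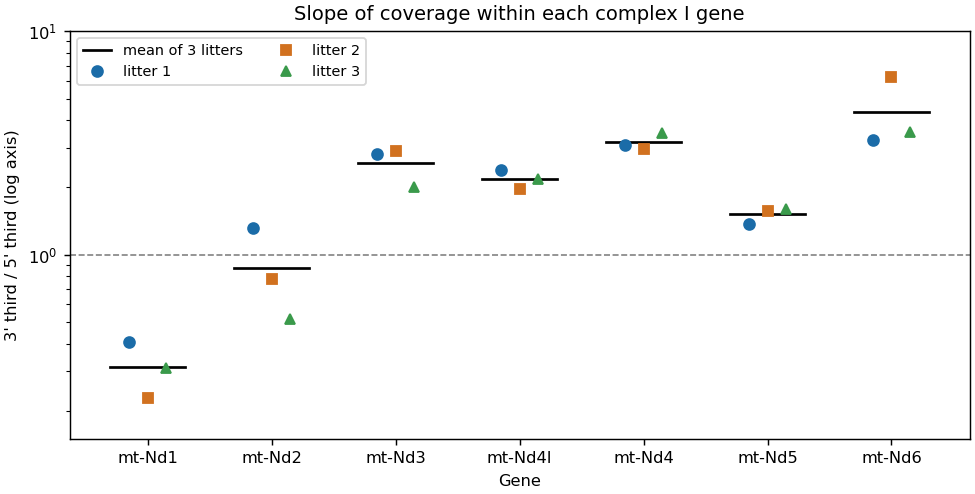
Coverage of the 3′ segment over that of the 5′ segment, each 1 of 3 equal parts of the gene on its own strand (log axis), with points for the 3 litters and a line for their mean. mt-Nd1 lies below 1 and 5 genes above 1 in every litter, while mt-Nd2 runs from 1.31 in litter 1 to 0.516 in litter 3.

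Alignments that cross a gene end were counted where at least 10 bases lay on each side. The count was divided by the median count that so spans positions inside the gene at least 72 bases from both ends. A crossing ratio of 1 therefore means no fall at the end, and it compares the end with the gene's own inside. Of 14 ends, 11 were below 0.5 in every litter, and the 3 exceptions were ends where 2 members overlap. The other end in an overlap, the 3′ end of mt-Nd5, was below 0.5. Among the 11 are the 3′ end of mt-Nd3 and the 5′ end of mt-Nd4l, beside a stretch where more alignments fit chromosome 1, described below. The 11 did not all stay below 0.5 under other settings. The 3′ end of mt-Nd3 had 0.498 ± 0.0864 with 1 base required on each side. Its 5′ end had 0.552 against only the inside positions within 100 bases of the nearest one. Such low ratios were not particular to complex I. Among the 6 other protein genes, 5 of 6 5′ ends and 5 of 6 3′ ends were below 0.5 in every litter.

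Of the 4 plus-strand 3′ ends beside a tRNA gene, those of mt-Nd2, mt-Nd4 and mt-Nd1 had low ratios. The fourth, that of mt-Nd3 beside mt-Tr, had 0.383 ± 0.0816. It had 0.222 with at least 20 bases required on each side and 0.498 with 1 base. At the 3′ end of mt-Nd2, whose last bases overlap mt-Tw, 260, 88 and 43 alignments crossed in litters 1 to 3. The ratio was 0.00410 ± 0.00355 (SD, n = 3). It was 0.00205 without litter 1, which had the most. At the 3′ end of mt-Nd4, beside mt-Th, 456, 289 and 387 crossed, a ratio of 0.0106 ± 0.00352. At the 3′ end of mt-Nd1, whose last bases overlap mt-Ti, 1734, 795 and 1043 crossed, a ratio of 0.0290 ± 0.00850. Because coverage already fell inside mt-Nd1 and mt-Nd4, these ratios depend on the inside positions used. Against only the inside positions within 100 bases of the nearest one they were 0.237 in mt-Nd1 and 0.0757 in mt-Nd4.

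Ratios at 5′ ends beside a tRNA gene ran over a wide range. The ratio was 0.0306 ± 0.00517 for mt-Nd5 after mt-Tl2, 0.110 ± 0.0210 for mt-Nd4l after mt-Tr, 0.157 ± 0.0465 for mt-Nd6 after mt-Te, 0.241 ± 0.0510 for mt-Nd1 after mt-Tl1 and 0.410 ± 0.0269 for mt-Nd3 after mt-Tg. At the 5′ end of mt-Nd2, after mt-Tm, 5247, 6032 and 11326 alignments crossed in litters 1 to 3. Litter 3 thus had the most there although its level of mt-Nd2 was lowest, and the ratio of 0.265 ± 0.179 was 0.162 without it. Against only the inside positions within 100 bases of the nearest one, the ratio was 0.155 for mt-Nd5, 0.336 for mt-Nd6, 0.125 for mt-Nd4l and 0.552 for mt-Nd3. The order of these ends therefore depends on the inside positions used.

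**Figure D4:**
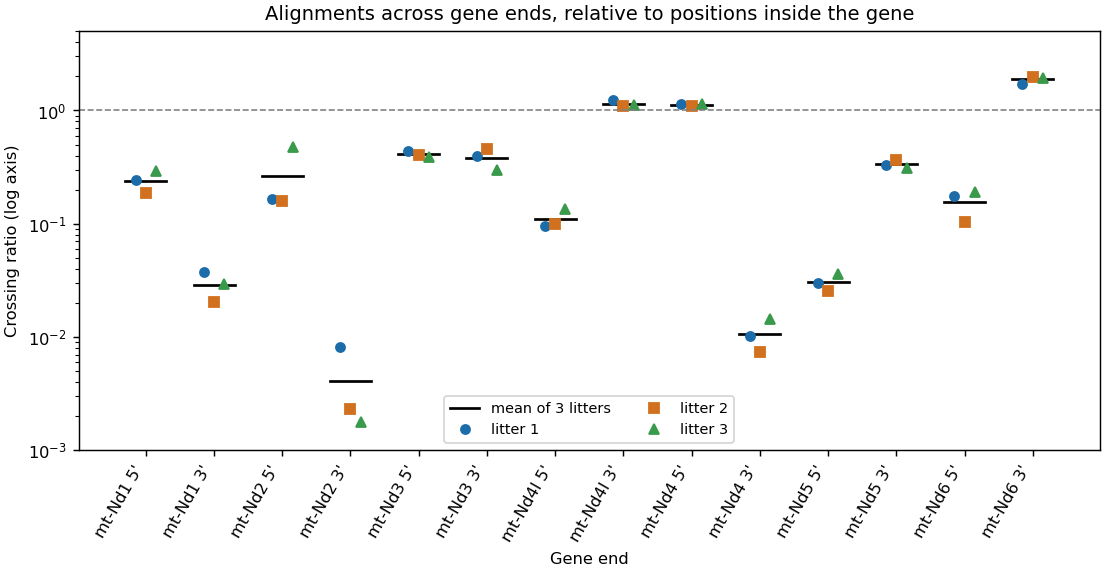
Crossing ratio at the 5′ and 3′ end of each complex I gene (log axis), with points for the 3 litters, a line for their mean and a dashed line at 1. The 3 ends above 1 in every litter are those between mt-Nd4l and mt-Nd4 and the 3′ end of mt-Nd6, and the 3′ end of mt-Nd2 is lowest at 0.00410.

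No fall appeared between mt-Nd4l and mt-Nd4. The ratio was 1.15 ± 0.0776 at the 3′ end of mt-Nd4l and 1.13 ± 0.0258 at the 5′ end of mt-Nd4 (SD, n = 3). Against only the inside positions nearest each end, the ratio was 1.69 at mt-Nd4 and 1.00 at mt-Nd4l. With at least 20 bases required on each side it was 1.06 at both ends, and with 1 base it was 1.01 at mt-Nd4. In litters 1 to 3, 40853, 34918 and 24890 alignments held at least 10 bases of each gene outside the shared ATGCTAA. Of all alignments that touch mt-Nd4l, 27.6% ± 1.41 ran over its 3′ end and 2.75% ± 0.406 over its 5′ end. mt-Nd4l is 297 bases long, and short genes have a larger share of alignments over their ends at even coverage.

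Alignments also crossed between mt-Nd5 and mt-Nd6, which lie on opposite strands. At the 3′ end of mt-Nd5 the ratio was 0.334 ± 0.0267, with 5200, 5492 and 3570 alignments crossing in litters 1 to 3. Relative to the lower inside of mt-Nd6 almost the same alignments gave 1.88 ± 0.134 at its 3′ end. The alignments with at least 10 bases of each gene outside the 14 shared bases numbered 3857, 4146 and 2685. These may be RNA of either strand, which the data cannot tell apart.

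Each of the 14 crossing ratios lay on 1 side of 1 in 3 of 3 litters, with an exact permutation p of 0.25 (adjusted p = 0.25 over the 14 ends). Between mt-Nd4l and mt-Nd4 this depended on the bases required on each side. The exact permutation p was 0.5 at the 3′ end of mt-Nd4l with 20 bases, and 0.75 at the 5′ end of mt-Nd4 with 1 base. Under those settings neither lay on 1 side of 1 in every litter. Over the 7 genes the median ratio was 0.208 ± 0.0714 at 5′ ends, against 0.0367 ± 0.00656 for the 6 other protein genes. At 3′ ends it was 0.329 ± 0.0337 in complex I, against 0.0636 ± 0.0271 for the others. The median of complex I was higher in 3 of 3 litters at both ends (exact permutation p = 0.25 for each). At 3′ ends that median was the end of mt-Nd5 that overlaps mt-Nd6 in litters 1 and 2. In litter 3 it was the end of mt-Nd3, whose ratio counts only alignments that fit the mitochondrial reference. The 3′ ends of mt-Nd1, mt-Nd2 and mt-Nd4, at 0.0290, 0.00410 and 0.0106, lay below the median of the others. The higher median thus does not hold for each complex I gene.

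Alignments that begin or end at the exact base of a gene end were compared with the median per base within 50 bases on both sides. Where counts fall at a gene end, the low side can lower this median. A value above 1 then need not mean a peak at that base. The largest excess was at the 3′ end of mt-Nd4, the lone T shown above, where 83, 54 and 63 alignments ended in litters 1 to 3, an excess of 4.98 ± 0.182 fold (SD, n = 3). mt-Nd1 had 145, 80 and 93 ending at its last base, an excess of 3.19 ± 0.255. mt-Nd4l had 512, 509 and 276 beginning at its first base, an excess of 2.35 ± 0.497. The 5′ ends of mt-Nd1, mt-Nd2, mt-Nd5 and mt-Nd6 and the 3′ end of mt-Nd3 also had values above 1 in every litter, with means from 1.53 to 1.99. At the other 6 ends at least 1 litter had no excess. Starts differ widely from base to base, and averaged within 2 bases the values were 3.22 for mt-Nd4, 2.18 for mt-Nd1 and 1.61 for mt-Nd4l.

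The nuclear genome holds old insertions of mitochondrial sequence. The mitochondrial range named for a known copy on chromosome 1 takes in all of mt-Nd3 and mt-Nd4l and the first 849 of the 1378 bases of mt-Nd4. mt-Nd1, mt-Nd2, mt-Nd5 and mt-Nd6 lie outside it. Counts were compared position by position, and runs of start positions with the same 3 litter counts are read as the same reads counted at both places.

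In mt-Nd4l, 226 of 226 start positions had the same counts on chromosome 1 in all 3 litters, and in mt-Nd3 276 of 277 did. In mt-Nd4 the equality held at 805 of 1307 start positions, which carried 40.9% ± 1.39 of its alignments (SD, n = 3). It ended with the alignment that reaches base 11042, beyond which no further position matched. The 3 genes' matched stretches lie between 24618374 and 24619958 of chromosome 1 on mm9, in reverse orientation. RNA of that copy and of mt-Nd3, mt-Nd4l and this part of mt-Nd4 therefore cannot be told apart here.

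**Figure D5:**
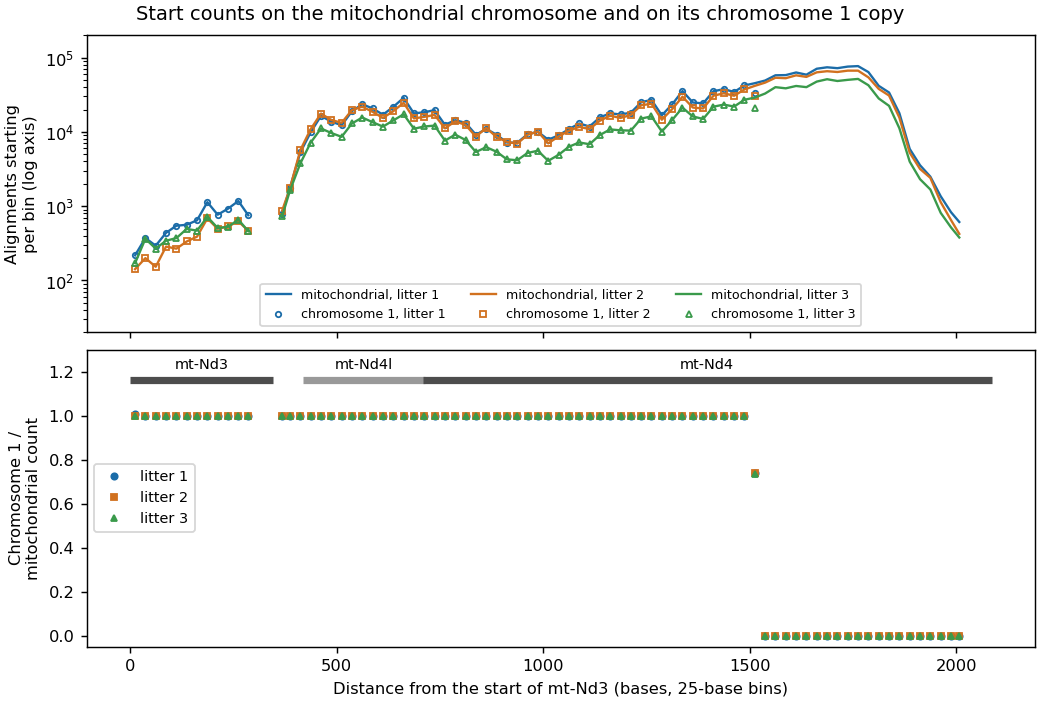
Upper panel, alignments starting per 25-base bin (log axis) on the mitochondrial chromosome (lines) and at the matching place of chromosome 1 (open points), by distance from the start of mt-Nd3; lower panel, the ratio of the counts. The ratio is 1 across mt-Nd3, mt-Nd4l and 805 start positions of mt-Nd4 and 0 beyond them, and the break before mt-Nd4l is a stretch of 64 start positions described in the text.

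Coverage of mt-Nd4 was lower over the copy than beyond it. It stood at 0.842, 0.866 and 0.527 times the chromosome average over those first 849 bases, less the shared ones, and at 1.73, 1.78 and 1.19 beyond them, a ratio of 0.472 ± 0.0257 (exact permutation p = 0.25, below 1 in 3 of 3 litters). Split at base 11042, the last matched base, the ratio was 0.503 ± 0.0265. It was 0.778 ± 0.0110 over 72 bases on each side of that base and 0.909 ± 0.00827 over 25 bases on each side. The highest base of mt-Nd4 lies beyond the copy in every litter. Over bases outside every matched stretch, mt-Nd4 had a level of 1.55 ± 0.319, against 1.06 ± 0.241 over all its unshared bases.

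Shorter matches touched 3 more members. Mitochondrial bases 4775 to 4903, in mt-Nd2, recurred at 22445592 to 22445720 of chromosome 2, with 58 of 58 positions of at least 10 alignments equal and 3.32% ± 0.590 of the alignments inside the gene. Within mt-Nd5, bases 12753 to 12834 recurred at 85266732 to 85266813 of chromosome 13, and bases 13056 to 13150 at 79648802 to 79648896 of chromosome 4. These held 3.05% ± 0.205 of its alignments. At the 5′ end of mt-Nd6, 5 of 10 positions of at least 10 alignments, whose alignments run into mt-Te, matched chromosome 4. That is the least number taken as a run. mt-Nd1 had no match. Levels over bases outside these stretches were 0.649 ± 0.147 for mt-Nd2, 0.271 ± 0.0555 for mt-Nd5 and 0.0594 ± 0.0147 for mt-Nd6 (SD, n = 3). The value for mt-Nd6 leaves out its 5′ end, where its coverage was lowest in every litter.

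Between mt-Nd3 and mt-Nd4l the chromosome 1 copy held more alignments than the mitochondrial reference did. Within mt-Tr, the tRNA gene that separates them, spanning alignments fell to 75, 46 and 65 in litters 1 to 3 just after base 9824, the lowest of the stretch. At the 3′ end of mt-Nd3 they had been 493, 326 and 295, and at the 5′ end of mt-Nd4l 3471, 3555 and 3329. The run of equal counts broke here and went on with a shift of 1 base, leaving 64 start positions on the mitochondrial chromosome and 65 on chromosome 1. Alignments starting among them numbered 2107, 1785 and 1549 on chromosome 1, against 466, 410 and 416 on the mitochondrial chromosome. That is 4.20 ± 0.421 fold more on chromosome 1 (SD, n = 3), higher in 3 of 3 litters (exact permutation p = 0.25). The lowest spanning count in this stretch of chromosome 1 was 1382, 1018 and 777. Inside mt-Nd3, the median spanning count on the mitochondrial chromosome was 1250, 711 and 995 in litters 1 to 3. The crossing ratios at the 3′ end of mt-Nd3 and at the 5′ end of mt-Nd4l count only alignments that fit the mitochondrial reference. Alignments here had no gaps, and how the mothers' mitochondrial sequence differs from the reference was not tested.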

How the data were processed

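RNA of 3 litters of 2-cell embryos was amplified with SPIA, and the cDNA was sheared before Illumina libraries were made, per the labels' protocols. The submitters' processing notes name the aligner Bowtie and the build mm9, without version or settings. As signal, the authors deposited coverage, the unscaled number of reads over each base, per the file headers, rounded by the authors to 6 digits from 1000000 up. Such values occur only in mt-Rnr2.

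Coverage was split into ungapped 72-base alignments, from left to right on nuclear chromosomes and from the right end on the mitochondrial one, which keeps the rounded stretch out of the genes described. No start count was negative on nuclear chromosomes or from mitochondrial base 2676 on. Recovery, crossing ratios and the search for copies were tested on simulated data.

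Gene positions come from GENCODE M21 (GRCm38), whose mitochondrial chromosome is taken to be that of mm9, with the same gene positions as the rule that named the members. A genome of mm9 was not used here, and nuclear marker genes of the embryo were not analysed. Copies are runs of at least 5 positions on 1 diagonal, with gaps up to 300 bases, where all 3 litter counts are equal and at least 50, or at least 10 where stated.

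Values are means with SD over litters, which are separate collections per the labels. Tests are exact two-sided sign-flip permutation tests of log2 ratios, with Benjamini-Hochberg adjustment. Amplified reads are not independent molecules, so counts carry more than counting error. All 7 members are named, with the 6 other protein genes and the ribosomal RNA genes for comparison. Members and measures were chosen with earlier results of these data known. The levels outside matched stretches, the comparison of every start position, the split of mt-Nd4 at the last matched base and the stretch between mt-Nd3 and mt-Nd4l were added after seeing the data. Alternatives were the bases and summary used, scaling, segments, the bases needed on each side, the inside positions, count minimums and leaving out each litter. The tools were numba 0.67.0, pandas 2.3.3, matplotlib 3.10.9, scipy 1.17.1 and numpy 2.4.6, under Python 3.11.15.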

Additional observations from a re-analysis of the deposited data

How the results depend on the processing

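The tests pair values within each litter, and no paired comparison of conditions was possible because the 3 litters form 1 group. Of 255 alternative values for 56 results, 2 reversed a tested ratio and 16 moved by over 1.5 times. By over 1 SD, or outside the interval of a share, 42 moved. With 3 litters no setting gave a p below 0.25, so the tests say nothing of stability. The complex I median over the other protein genes was 0.956 with means of genes, against 1.17 with medians. The 3′ to 5′ ratio of mt-Nd2 turned to 1.05 without litter 3, with 0.647 the lowest value without a litter. Leaving out each litter changed no other direction of a tested ratio. The excess at exact gene ends was not tested, and its reversals are not among those counted. It went from 0.996 to 1.04 without litter 3 at the 5′ end of mt-Nd4. At the 3′ end of mt-Nd2 it went from 1.005 to 0.944 without litter 1. Averaged within 2 bases, it went from 0.722 to 1.20 at the 3′ end of mt-Nd6 and from 0.996 to 1.36 at the 5′ end of mt-Nd4. The order of mean levels was the same over all 3 scalings. The chromosome mean and the protein gene mean divide all genes of a library by 1 number. The order within a litter could therefore not differ between them. The median over bases put mt-Nd4 at 0.738, below mt-Nd1 at 0.805, so the first place of mt-Nd4 depends on the summary used. Bases outside matched stretches put mt-Nd4 at 1.55.

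Averaged within 2 bases of the end, the excess at 3′ ends was 2.18 in mt-Nd1, 1.35 in mt-Nd2, 1.41 in mt-Nd3, 3.22 in mt-Nd4, 0.893 in mt-Nd4l, 0.835 in mt-Nd5 and 1.20 in mt-Nd6. At 5′ ends it was 1.22 in mt-Nd2, 1.36 in mt-Nd4 and 1.61 in mt-Nd4l. The cause was not tested. The share of start positions matched on a nuclear copy in mt-Nd4, 65.6% among those with at least 50 alignments in every litter, was 62.0% at 10 and 44.8% at 500. In mt-Nd2 and mt-Nd5 it was 0% at 500, with 266 and 34 positions left to search. mt-Nd3 has no position with 50 in every litter, and at 10 all 165 matched. Depth limits mt-Nd3 most, with a median of 12 to 21 alignments per start position.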

Other observations

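Start counts varied from base to base in a way that recurred between litters. In mt-Nd4 the median start position held 705, 650 and 437 alignments in litters 1 to 3 and the fullest held 7626, 6691 and 5249. Over its 1307 start positions, log2 counts correlated at 0.991 to 0.996 between pairs of litters. In mt-Nd3, with a median of 21, 12 and 15 alignments over 277 positions, the same correlations were 0.821 to 0.864. These are descriptions across positions that share a sequence, with no test. In every litter at most 1 start position was empty within mt-Nd3 or mt-Nd5, and none was within the other 5 members.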
